A study of Homo sapiens with 27 samples.

Results

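The genes described here encode the subunits, activators, inhibitor and assembly factors of the proteasome. They were picked by a rule on gene symbols, and that choice was made with earlier results of these data known. Every gene whose symbol in the array's probe table begins with PSMA, PSMB, PSMC, PSMD, PSME, PSMF or PSMG and a digit was taken, with its brightest probe standing for it. This gave 40 genes with 49 probes, out of 15240 named genes and 30968 probes. The rule also took PSMC3IP, a meiotic recombination factor named after a proteasome subunit but no part of the particle. PSMA3, PSMA6, PSMB8, PSMB9, PSMB11, PSMC6 and PSMG4 had no named probe here. PSMG1 and PSMG2 stood in the table under older names only and were kept outside the 40. The 40 genes lie on 16 chromosomes in RefSeq (GRCh38.p14), and 18 of them have pseudogenes listed there, 44 in all. Cross-hybridisation of the probes with those copies was not tested.

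RNA came from U937, a human line of monocyte-like lymphoma cells, read in the Cy5 channel of a one-colour oligonucleotide array. Untreated cells were compared with cells given bacterial lipopolysaccharide (LPS) at 4 µg/ml, and with cells held for 2 h in 10 µM PBD150, an inhibitor of glutaminyl cyclase, before the same dose of LPS. All cultures were kept for 48 h, and a group held 3 biological replicates, each hybridised to 3 technical arrays, so n = 3 below counts biological replicates. The labels do not say that replicates were separate cultures, so the p-values measure the spread between these samples, and no group received PBD150 alone. The study is on 1 cell line, and the labels call the cells macrophages without naming a differentiating agent.

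The proteasome is a barrel of stacked alpha and beta rings that cuts ubiquitin-tagged proteins, capped by a regulatory particle whose ATPases unfold the substrate. Interferons replace the catalytic beta subunits PSMB5, PSMB6 and PSMB7 with PSMB8, PSMB9 and PSMB10, and raise the cap formed by PSME1 and PSME2. The resulting immunoproteasome favours peptides that class I molecules present, and myeloid cells are known to carry it.

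Values are log2 of deposited spot intensity after quantile normalisation, with the technical arrays averaged, and a change is a difference between group means on that scale. A gene is said to rise or fall only where limma's adjusted p over all 30968 probes was under 0.05. The median intensity of an array lay between 41.5 and 100.3, and 69.0% to 77.8% of its probes were above its noise limit. Untreated replicate 1 stood apart before normalisation, with array log2 medians of 5.37 to 5.55 against 6.12 to 6.23 in the other untreated replicates. Averaged by group, these medians were 5.93 for untreated cells, 6.41 for LPS and 6.25 for PBD150 plus LPS, which quantile normalisation makes equal. Of 9 measured monocyte and macrophage markers, 5 rose with LPS, and their summed log2 level was between 76.1 and 78.9 in untreated replicates, between 99.6 and 101.9 in LPS replicates and between 99 and 101.6 in PBD150 plus LPS replicates. The 6 T or NK markers summed to 39.2 to 39.5, 42.7 to 45.1 and 43.2 to 43.9 in these groups, and 1 rose in both treated groups. Sums for the 3 B cell markers were 23.4 to 23.9, 22.4 to 23.8 and 22.1 to 22.8 in the same order, with 1 rising and 1 falling in LPS and 1 falling in PBD150 plus LPS. Sums for 5 fibroblast or epithelium markers were 24.6 to 25.6, 28.2 to 30.2 and 29.3 to 30.7, with 2 rising in both treated groups and COL3A1 above noise on no treated array. No erythroid marker had a named probe. The part of these shifts in the results below was not tested.

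With LPS most proteasome genes were lower than in untreated cells. Of the 40 genes 22 fell and 2 rose. With values as deposited, where normalisation between arrays is left out, 7 fell and 3 rose, and over all probes 5935 were higher and 2205 lower, against 3292 and 3664 after quantile normalisation. All 22 falls were among the 37 genes that interferons are not known for inducing, and of the 3 inducible genes 1 rose and none fell, a difference between the sets that was not tested. The smaller set says little, since PSME2 was near the noise limit and PSME1 rose on 1 of its 2 probes. The 37 include PSMC3IP, which fell and is no subunit. Falls made up 55.0% of the genes, against 11.8% of all probes, and rises made up 5.0%, against 10.6%. The median change over the 40 genes was -0.78, and over all probes 0.08. The median difference of the 40 genes from the untreated mean was -0.72, -0.67 and -0.75 in the 3 LPS replicates. In the untreated replicates, whose own mean was the reference, it was -0.01, 0.02 and -0.01. The groups did not overlap, but the untreated values are near 0 by construction. Of the 27 genes whose probes were in the brightest 25% of the array 14 fell, which is 51.9% against 19.7% of all such probes. Bulk RNA cannot tell less of a transcript in each cell from fewer cells that carry it.

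**Figure D1:**
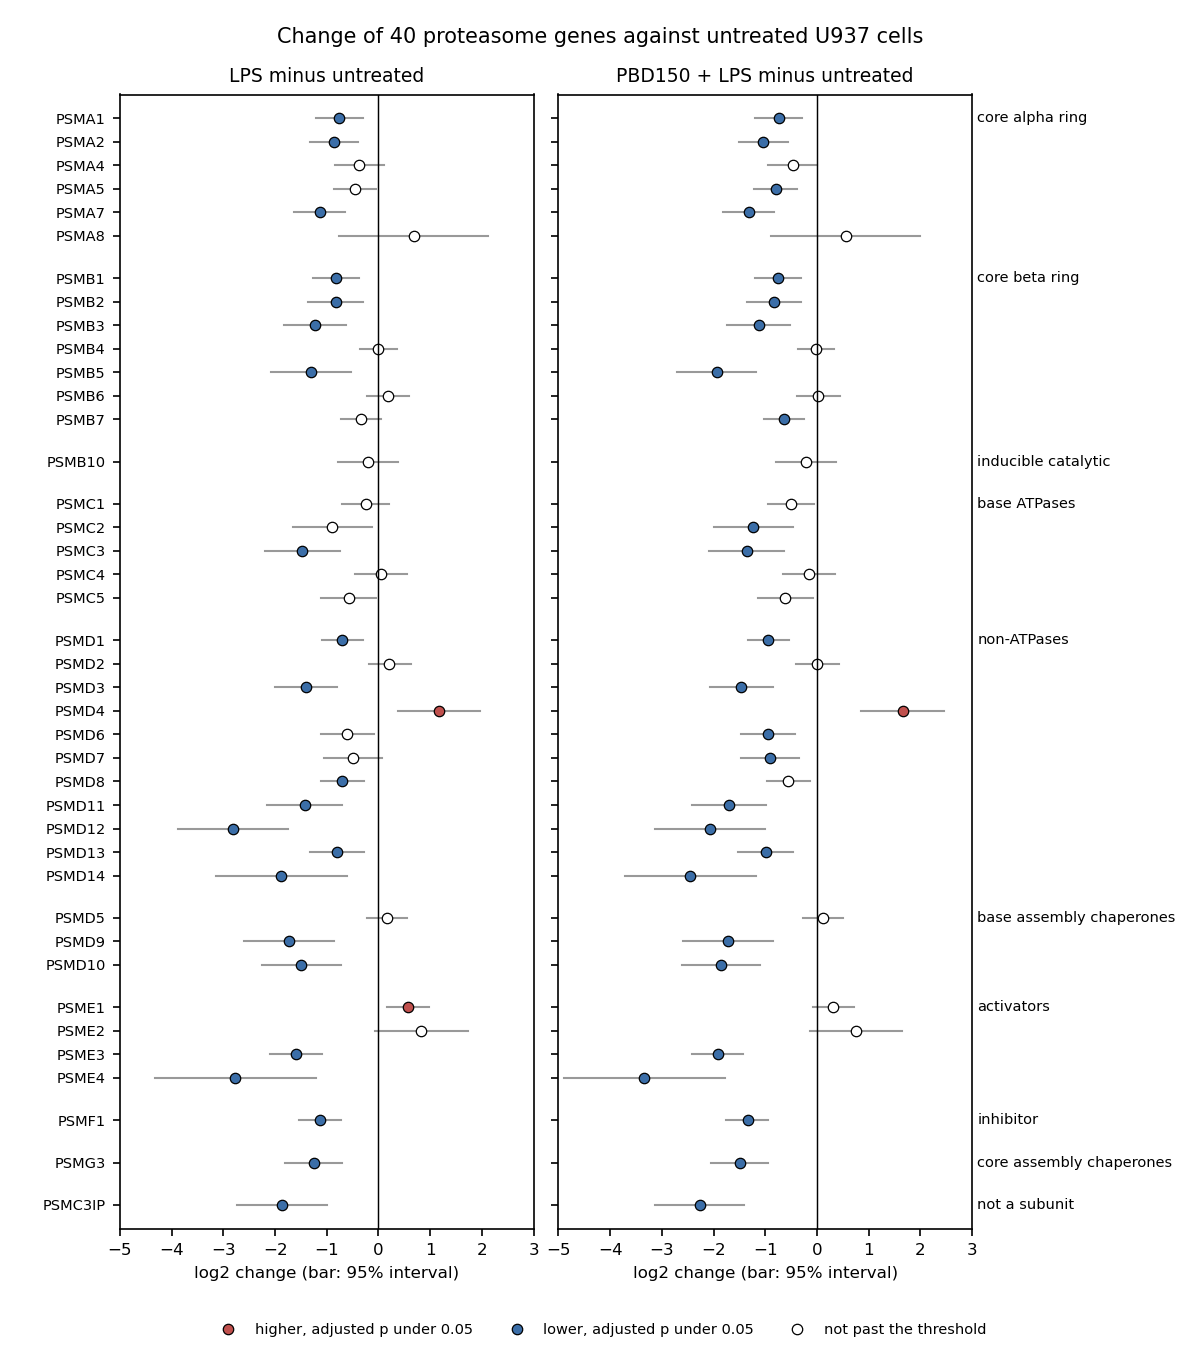
Each point is the log2 change of a proteasome gene against untreated cells with its 95% interval from limma, with LPS on the left and with PBD150 plus LPS on the right, grouped by role. Filled points passed an adjusted p of 0.05, most points lie left of 0, and PSMD4 and PSME1 are the points to the right that passed with LPS. PSMA8 and PSME2 were near the noise limit, and PSMC3IP is no subunit.

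Of the 5 interferon-inducible genes of interest, PSMB10, PSME1 and PSME2 had a named probe. The stretch before the start of each is shown because interferon-stimulated response elements are what sets these genes apart from their constitutive counterparts in textbook accounts. The sequences are from RefSeq (GRCh38.p14), 5′ to 3′ on the gene's own strand, and capitals mark a match to GAAANNGAA, the core of that element, on either strand. For PSMB10 the 250 bases before the start (chr16:67936851-67937100, minus strand) hold it from -21 to -13, and for PSME2 those 250 bases (chr14:24146611-24146860, minus strand) hold it from -28 to -20. For PSME1 no match lay before the start, and the 21 bases shown (chr14:24136194-24136214, plus strand) hold it on the opposite strand from 7 to 15 after the start.
PSMB10: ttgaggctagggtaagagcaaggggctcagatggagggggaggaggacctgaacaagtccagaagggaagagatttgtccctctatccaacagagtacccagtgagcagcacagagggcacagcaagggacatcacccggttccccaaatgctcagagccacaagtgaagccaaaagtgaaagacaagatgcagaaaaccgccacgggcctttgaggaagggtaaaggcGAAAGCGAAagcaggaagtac
PSME2: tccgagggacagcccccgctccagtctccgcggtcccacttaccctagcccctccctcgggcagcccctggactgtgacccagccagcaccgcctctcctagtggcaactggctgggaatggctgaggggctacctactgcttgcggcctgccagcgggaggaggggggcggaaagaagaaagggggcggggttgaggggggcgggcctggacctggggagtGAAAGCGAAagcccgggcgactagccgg
PSME1: accgctTTCGCTTTCccttcg
The core was present before the start in 6.88% of 35116 promoters of that length, and in 4 of the 34 members with a promoter in the table, or 11.8%, PSMA4, PSMB4, PSMB10 and PSME2. With the first 50 transcribed bases added it was in 8.11% of promoters and in 6 members, PSMC2 and PSME1 being the further ones. A match is a description of letters, not a site shown to be bound.

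PSMB10, the inducible trypsin-like subunit, was at 7.96, 8.20 and 8.16 untreated, at 7.48, 8.20 and 8.03 with LPS, and at 7.61, 7.78 and 8.27 with PBD150 plus LPS. The groups overlapped throughout. Its change with LPS was -0.21 ± 0.26 (SE), with a 95% interval of -0.79 to 0.38 and an adjusted p of 0.615 in limma. The interval thus leaves room for a rise of up to 0.38.

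PSME1, the alpha chain of the PA28 cap, was at 12.21, 12.18 and 12.14 untreated and at 12.78, 12.75 and 12.71 with LPS. Every LPS replicate was above every untreated one. It rose by 0.57 ± 0.17 (limma adjusted p = 0.0473), close to the threshold. With PBD150 plus LPS it was at 12.39, 12.36 and 12.74, also above the untreated range, with a change of 0.32 ± 0.17 that did not pass (adjusted p = 0.215). A second PSME1 probe gave -0.02 with LPS and -0.10 with PBD150 plus LPS (adjusted p = 0.972 and 0.819), so the rise was seen with 1 of its 2 probes. It also missed the threshold when any of the 6 untreated or LPS replicates, or PBD150 plus LPS replicate 1 or 2, was left out, with an adjusted p of up to 0.139.

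PSME2, the partner chain of PSME1, was near the noise limit on both its probes and gives no usable level. Its brighter probe was at 2.10, 3.57 and 2.79 untreated, at 3.88, 3.79 and 3.30 with LPS and at 3.32, 4.08 and 3.32 with PBD150 plus LPS. It was above noise on 1, 3 and 2 of the 9 arrays of these groups. The changes against untreated, 0.83 ± 0.39 and 0.75 ± 0.39, did not pass (adjusted p = 0.172 and 0.198 in limma), and the second probe was at -1.19 with LPS (adjusted p = 0.389).

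**Figure D2:**
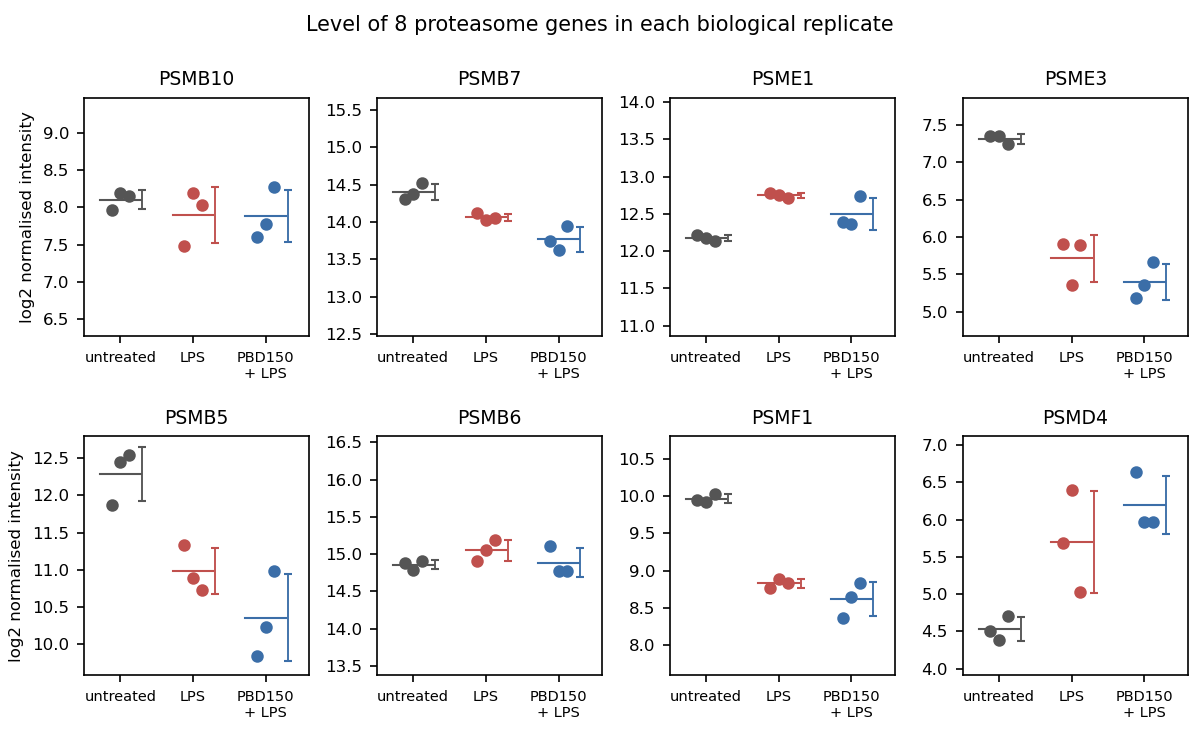
Points are the 3 biological replicates of each group on the log2 normalised intensity scale, each the mean of 3 arrays, with the group mean as a line and the SD as a bar, and every panel spans the same log2 range. PSME1 is above and PSME3, PSMB5 and PSMF1 are below the untreated replicates in both treated groups, while PSMB10 and PSMB6 overlap.

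The constitutive catalytic subunits differed among themselves. PSMB5, the chymotrypsin-like subunit that PSMB8 replaces, was at 11.87, 12.45 and 12.54 untreated, at 11.33, 10.89 and 10.73 with LPS and at 9.84, 10.24 and 10.99 with PBD150 plus LPS. Neither treated group reached the untreated range. It fell by 1.30 ± 0.33 with LPS (adjusted p = 0.0241) and by 1.93 ± 0.33 with PBD150 plus LPS (adjusted p = 0.00338). The fall with LPS missed the threshold when untreated replicate 2 or 3 or LPS replicate 2 or 3 was left out, with an adjusted p of up to 0.0837. PSMB7, the trypsin-like subunit that PSMB10 replaces, was at 14.31, 14.37 and 14.52 untreated, at 14.12, 14.03 and 14.05 with LPS and at 13.74, 13.62 and 13.95 with PBD150 plus LPS. Its 3 groups did not overlap in that order. The change with LPS was -0.34 ± 0.17 and did not pass (adjusted p = 0.203), and with PBD150 plus LPS it fell by 0.63 ± 0.17 (adjusted p = 0.0267). That fall missed the threshold without any single untreated replicate or without PBD150 plus LPS replicate 1 or 2, with an adjusted p of up to 0.103, and also after median centring, with a replicate block and with values as deposited. PSMB6, the caspase-like subunit that PSMB9 replaces, was at 14.88, 14.79 and 14.91 untreated, at 14.91, 15.05 and 15.19 with LPS and at 15.11, 14.77 and 14.78 with PBD150 plus LPS. These overlapped, the change with LPS was 0.18 ± 0.18 (adjusted p = 0.516), and its second probe gave -0.34 (adjusted p = 0.173).

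Since the levels of 2 probes cannot be compared, pairs of genes were followed as a difference of their changes. PSMB10 over PSMB7 was planned as a pair of inducible and constitutive genes, and PSME1 over PSME3 was not planned. PSME1 over PSME3, set to 0 in the untreated mean, was at 2.01, 2.54 and 1.96 with LPS and at 2.34, 2.13 and 2.23 with PBD150 plus LPS, against -0.01, -0.03 and 0.04 untreated. The treated replicates were all far above the untreated ones, mostly through PSME3. This pair sets a gene that rose with LPS against the gene with the smallest p, so its separation follows from that choice. PSME1 was at -0.02 with LPS on its second probe. PSMB10 over PSMB7 was at -0.35, 0.46 and 0.27 with LPS and at 0.16, 0.46 and 0.61 with PBD150 plus LPS, against -0.05, 0.13 and -0.07 untreated. LPS replicate 1 lay below the untreated values and the other LPS replicates above them. With that spread, a shift from PSMB7 to PSMB10 with LPS could not be told. The PBD150 plus LPS replicates were all above the untreated ones, the lowest at 0.16 against 0.13. These pairs are given as descriptions.

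PSME3, PSME4 and PSMF1 act on the core from outside. PSME3 encodes the nuclear PA28-gamma cap, and was at 7.36, 7.35 and 7.24 untreated, at 5.90, 5.35 and 5.89 with LPS and at 5.18, 5.36 and 5.66 with PBD150 plus LPS. The treated replicates all lay more than 1 log2 unit below the untreated ones. It fell by 1.60 ± 0.22 with LPS and fell by 1.91 ± 0.22 with PBD150 plus LPS (limma adjusted p = 0.00117 and 0.000404), the smallest p among the 40 genes in both comparisons. PSMF1, the PI31 inhibitor of the core, was at 9.94, 9.92 and 10.03 untreated, at 8.77, 8.89 and 8.84 with LPS and at 8.37, 8.65 and 8.83 with PBD150 plus LPS. It fell by 1.13 ± 0.18 and by 1.34 ± 0.18 (adjusted p = 0.00252 and 0.000886), with no overlap with the untreated range. PSME4, the PA200 cap, was at 5.90, 5.42 and 4.97 untreated, at 3.12, 3.86 and 1.00 with LPS and at 1.46, 2.74 and 2.07 with PBD150 plus LPS. It fell by 2.77 ± 0.68 and by 3.34 ± 0.68 (adjusted p = 0.0203 and 0.00764), but it was above noise on 9 untreated arrays and on 2 and 1 of 9 treated ones, so the sizes rest on values at the noise limit. Without untreated replicate 1 or 2 the fall with LPS missed the threshold, with an adjusted p of up to 0.0697.

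The counts by role that follow stand beside falls in 11.8% of all probes with LPS and 13.5% with PBD150 plus LPS, or 19.7% and 22.5% among the brightest 25%, and none of the roles was tested as a group. In the alpha ring, which gates the barrel, 3 of 6 measured genes fell with LPS and 4 of 6 with PBD150 plus LPS. PSMA7 was at 14.79, 14.93 and 14.86 untreated, at 13.95, 13.63 and 13.56 with LPS and at 13.17, 13.64 and 13.80 with PBD150 plus LPS. All treated replicates were below the untreated ones. It fell by 1.14 ± 0.22 and by 1.32 ± 0.22 (limma adjusted p = 0.00582 and 0.00248), and its second probe gave -0.68 with LPS, which did not pass (adjusted p = 0.0996). PSMA2 fell on both of its probes, by 0.86 and 0.81 with LPS. PSMA1 fell by 0.76 on its brightest probe (adjusted p = 0.0265), while its second probe stood at 0.82 with LPS and 1.56 with PBD150 plus LPS (adjusted p = 0.450 and 0.134), so its probes disagree. PSMA8, the testis form of an alpha subunit, was above noise on 1 array of 27.

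Among the 7 standard beta ring genes 4 fell with LPS, PSMB1, PSMB2, PSMB3 and PSMB5, and with PBD150 plus LPS these 4 and PSMB7 fell. PSMB3, a structural subunit, fell by 1.22 ± 0.26 with LPS (adjusted p = 0.0113), and PSMB2 fell on both of its probes, by 0.83 and 1.50. PSMB1 fell by 0.83 ± 0.19 (adjusted p = 0.0163) and was at the top of the scanner range on 3 of 9 untreated arrays, which limits its size. PSMB4, also structural, changed by 0.00 ± 0.15, but it was that close to the maximum on 8 of 9 LPS arrays and 1 of 9 untreated ones. A rise there may be hidden, and whether the scanner was saturated is not known.

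The base ATPases, the ring that unfolds substrates, had 1 fall in 5 with LPS and 2 in 5 with PBD150 plus LPS, the first close to the share of all bright probes. PSMC3 fell by 1.47 ± 0.32 with LPS (adjusted p = 0.0115) and was above noise on 7 untreated and 2 LPS arrays of 9. PSMC2 was at -0.89 ± 0.33 with LPS (adjusted p = 0.0947) on its brighter probe, whereas its second probe fell by 1.75 (adjusted p = 0.00812). PSMC1, PSMC4 and PSMC5, at -0.25, 0.05 and -0.58, did not pass with LPS (adjusted p = 0.414, 0.897 and 0.115 in limma).

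Most falls of the regulatory particle were in its non-ATPase subunits, 7 of 11 with LPS and 8 of 11 with PBD150 plus LPS. PSMD3, a lid scaffold subunit, was at 8.52, 8.74 and 8.61 untreated, at 6.88, 7.44 and 7.33 with LPS and at 7.04, 6.79 and 7.66 with PBD150 plus LPS. Its treated replicates were all below the untreated ones, and it fell by 1.41 ± 0.26 with LPS (adjusted p = 0.00577). PSMD12, another lid subunit, was at 5.52, 6.15 and 5.33 untreated, at 3.18, 3.38 and 1.98 with LPS and at 3.25, 3.15 and 4.38 with PBD150 plus LPS. It fell by 2.82 ± 0.46 with LPS (adjusted p = 0.0030) and was above noise on 9 untreated, 1 LPS and 3 PBD150 plus LPS arrays of 9, so the size is uncertain. PSMD14, the deubiquitinase of the lid, was at 11.47, 11.74 and 11.80 untreated, at 10.93, 9.34 and 9.10 with LPS and at 8.34, 9.16 and 10.15 with PBD150 plus LPS. It fell by 1.88 ± 0.56 and by 2.45 ± 0.56 (adjusted p = 0.0430 and 0.0126), with a wide spread in both treated groups, and the LPS fall missed the threshold without any single untreated replicate, LPS replicate 2 or 3 or PBD150 plus LPS replicate 2, with an adjusted p of up to 0.137. PSMD11 fell by 1.43, PSMD13 by 0.80, PSMD1 by 0.70 and PSMD8 by 0.70 with LPS. PSMD2, the other large scaffold of the base, was at 0.21 ± 0.18 and did not pass (adjusted p = 0.447).

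PSMD4, a ubiquitin receptor of the regulatory particle, went the other way. It was at 4.51, 4.39 and 4.70 untreated, at 5.68, 6.39 and 5.03 with LPS and at 6.64, 5.96 and 5.97 with PBD150 plus LPS. Every treated replicate was above the untreated ones, though the probe was dim and was above noise on 7 of 9 untreated arrays. It rose by 1.17 ± 0.35 with LPS (limma adjusted p = 0.0439) and by 1.66 ± 0.35 with PBD150 plus LPS (adjusted p = 0.00892). The rise with LPS missed the threshold without any single untreated replicate, without LPS replicate 1 or 2 and without PBD150 plus LPS replicate 2 or 3, with an adjusted p of up to 0.128. The rise with PBD150 plus LPS passed in each of those fits.

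The assembly chaperones were mostly among the falls. PSMG3, which helps build the alpha ring, was at 6.94, 6.86 and 6.86 untreated, at 5.34, 5.83 and 5.73 with LPS and at 5.52, 4.95 and 5.71 with PBD150 plus LPS. It fell by 1.25 ± 0.24 and by 1.49 ± 0.24 (adjusted p = 0.00653 and 0.00241). PSMD10, or gankyrin, a chaperone of the base and an oncoprotein, was at 11.35, 11.36 and 11.44 untreated, at 10.51, 9.72 and 9.43 with LPS and at 8.96, 9.73 and 9.88 with PBD150 plus LPS. The untreated replicates lay close together, the treated ones were spread and all lower, and it fell by 1.49 ± 0.33 and by 1.86 ± 0.33 (adjusted p = 0.0129 and 0.0040). PSMD9 fell by 1.74 ± 0.38 with LPS, and PSMD5 was at 0.17 ± 0.17 and did not pass (adjusted p = 0.529). The PSMD9 probe was above noise on 9 untreated, 6 LPS and 5 PBD150 plus LPS arrays of 9, so the size is uncertain. PSMG1, the chaperone read under an older name, fell by 2.93 ± 0.51 with LPS (adjusted p = 0.00402), and its partner PSMG2 was at -0.45 ± 0.16 and did not pass (adjusted p = 0.0886). PSMC3IP, the recombination factor, was at 7.46, 7.51 and 7.42 untreated, at 6.51, 4.83 and 5.46 with LPS and at 4.94, 5.33 and 5.32 with PBD150 plus LPS, and it fell by 1.87 ± 0.38 and fell by 2.27 ± 0.38 (adjusted p = 0.00816 and 0.00277).

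With PBD150 before LPS the picture against untreated cells was of the same kind, and the comparison shares the untreated replicates with the one above. Of the 40 genes 26 fell and 1, PSMD4, rose, and with values as deposited 16 fell. Over all probes 4174 were lower, and 3069 with values as deposited. Falls made up 65.0% of the 40 genes, against 13.5% of all probes, and rises 2.5%, against 12.6%. Among the brightest 25% of probes 18 of 27 genes fell, or 66.7% against 22.5% of all such probes. The median change of the 40 genes was -0.92, with all probes at 0.11. Leaving out replicates moved these counts. Of the 24 calls with LPS 12 passed in every fit with 1 replicate left out, those of PSMA7, PSMB3, PSMC3, PSMC3IP, PSMD3, PSMD9, PSMD10, PSMD11, PSMD12, PSME3, PSMF1 and PSMG3. The other 12 each missed the threshold without at least 1 untreated replicate. Of the 27 calls with PBD150 plus LPS 16 passed in every such fit, and those of PSMA1, PSMA5, PSMB1, PSMB2, PSMB3, PSMB7, PSMC2, PSMC3, PSMD6, PSMD7 and PSMD13 did not. Without untreated replicate 1, 2 or 3 the falls with LPS numbered 13, 12 or 14 in place of 22. Over all probes these fits gave 2580, 2415 and 2546 falls in place of 3664. Member falls with PBD150 plus LPS came to 16 without untreated replicate 2, to 17 without untreated replicate 3 and to 16 without PBD150 plus LPS replicate 1. Over all probes the falls were then 2964, 3102 and 3176 in place of 4174.

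**Figure D3:**
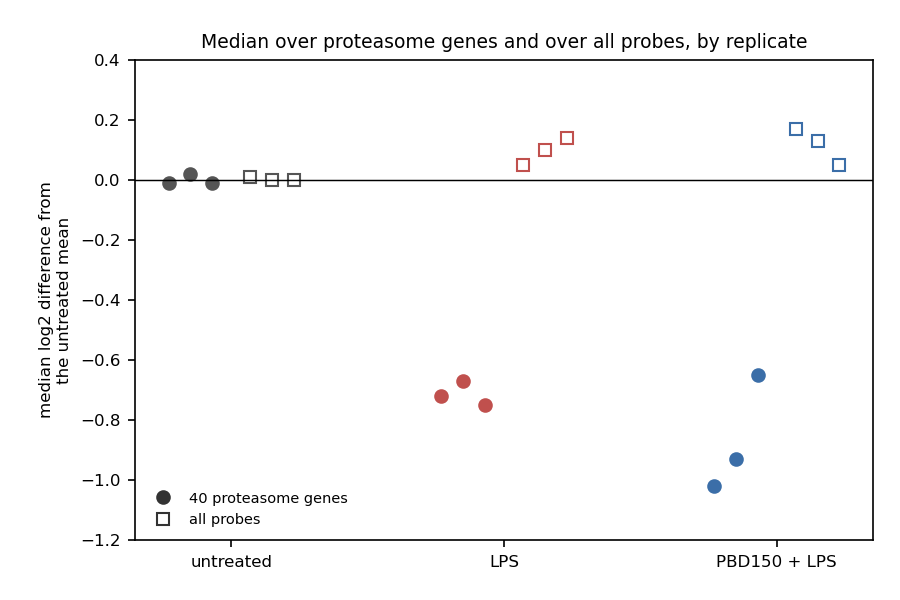
Filled circles give the median log2 difference from the untreated mean over the 40 proteasome genes in each biological replicate, and open squares the same over all probes. The treated replicates lie between -1.02 and -0.65 for the proteasome genes and between 0.05 and 0.17 for all probes, and the LPS and PBD150 plus LPS replicates overlap.

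The direct test of PBD150, in cells that all received LPS, gave no call among the 40 genes. Over all probes 0.0% passed, with a smallest adjusted p of 0.414 in limma. None of the 40 genes had an unadjusted p under 0.05, a mark that 5.11% of all probes were under. No other setting tried called any of the 40, including the fit of all 27 arrays, which called 1 probe higher and 13 lower elsewhere on the array. The 95% interval lay within 1 log2 unit of 0 for 31 of the 40 genes, so a change of 2-fold or more was outside it for these, and the widest interval ran from -2.13 to 0.99 for PSME4. The change was below 0 for 32 of the 40 genes, or 80.0%, against 47.0% of all probes, and its median was -0.18, against 0.03. Without PBD150 plus LPS replicate 1 the median was -0.08. The median per replicate was -1.02, -0.93 and -0.65 with PBD150 plus LPS, which overlaps the LPS replicates given above, since replicate 3 lay higher than all of them.

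The 3 genes with the smallest p in that comparison were PSMA5, PSMB5 and PSMB7, and none passed. PSMA5, an alpha ring subunit, was at 12.46, 12.70 and 12.74 untreated, at 12.27, 12.10 and 12.17 with LPS and at 11.64, 11.84 and 12.02 with PBD150 plus LPS. Its change against LPS was -0.34, with a 95% interval of -0.76 to 0.07 (adjusted p = 0.906). PSMB5 was at -0.63 with an interval of -1.39 to 0.14, and PSMB7 at -0.29 with an interval of -0.68 to 0.10, with the same adjusted p of 0.906. PSMA5 and PSMB7 were the genes whose PBD150 plus LPS replicates were all below the LPS replicates, 5.0% of the 40 against 4.29% of all probes. No gene had them all above, against 3.69% of all probes. Among the inducible genes PSMB10 was at -0.01 (95% interval -0.60 to 0.57), PSME1 at -0.25 (-0.65 to 0.15) and PSME2, near noise, at -0.08 (-0.98 to 0.81).

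**Figure D4:**
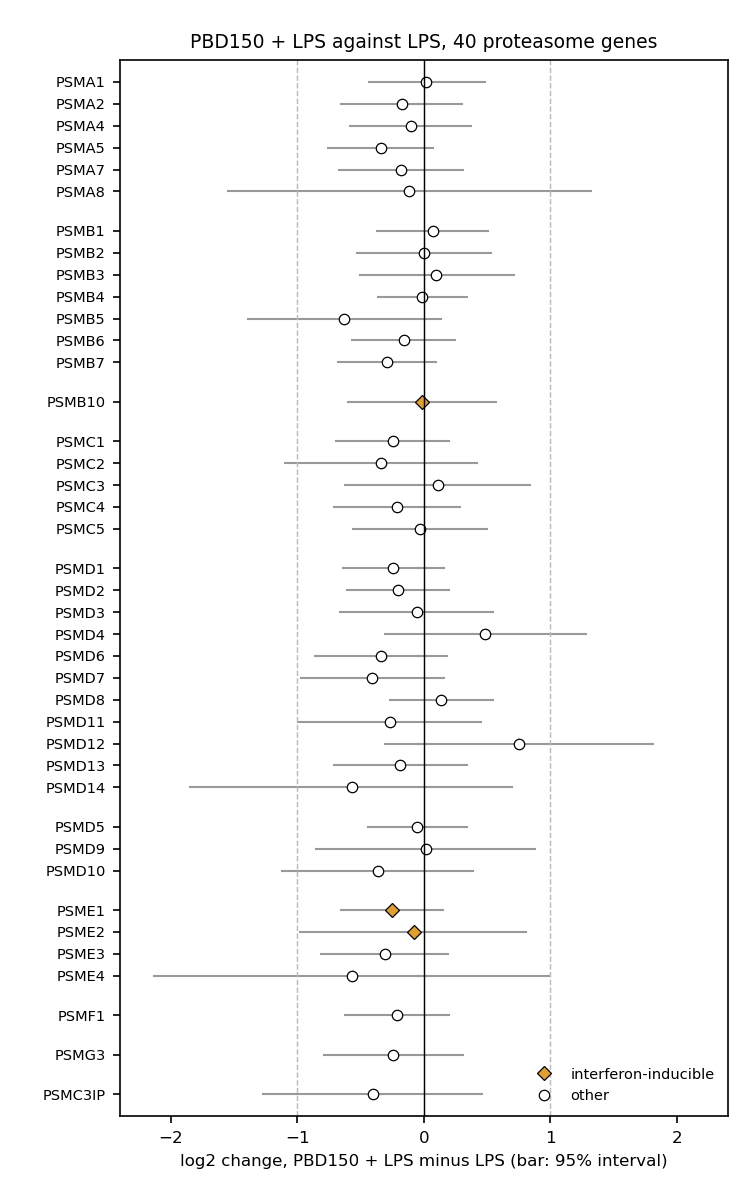
Points are the log2 change of each proteasome gene between PBD150 plus LPS and LPS, bars are 95% intervals from limma, diamonds are the interferon-inducible genes and dashed lines mark a change of 1 log2 unit. Every interval crosses 0, and 32 of the 40 points lie below 0.

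Genes that work with the proteasome were read from lists. Of 14 measured cofactors and assembly genes 2 fell and 1 rose with LPS, and 4 fell and 1 rose with PBD150 plus LPS. With LPS these counts are close to the share of all probes, 11.8% lower and 10.6% higher. With PBD150 plus LPS the share of all probes was 13.5% lower and 12.6% higher. The median change of the 14 was -0.60 with LPS, with 11 below 0, against 0.08 and 45.4% below 0 over all probes. With PBD150 plus LPS it was -0.77, with 12 below 0, against 0.11 and 44.5%. The list was not tested as a group. The counts of the ubiquitin and segregase lists below stand beside the same shares. UCHL5 and USP14, deubiquitinases that sit on the regulatory particle, fell by 1.34 and 0.78 with LPS (limma adjusted p = 0.00106 and 0.00812). AKIRIN2, which carries proteasomes into the nucleus, rose by 0.67 (adjusted p = 0.0177), a call lost without untreated replicate 1 or 2 or LPS replicate 3, with an adjusted p of up to 0.0754. POMP, the maturation chaperone of the core, was at -0.89 with LPS (adjusted p = 0.0737) and fell by 1.10 with PBD150 plus LPS. The PBD150 plus LPS calls of POMP, ADRM1 and AKIRIN2 each missed the threshold without any single untreated replicate or PBD150 plus LPS replicate 1 or 2. Those of ADRM1 and AKIRIN2 also missed it without LPS replicate 2 or 3. With a replicate left out, limma adjusted p reached 0.107, 0.140 and 0.130 for POMP, ADRM1 and AKIRIN2. Each of these calls was also lost with a replicate block and with values as deposited, and that of AKIRIN2 after median centring. Of 4 measured ubiquitin and activation genes 2 fell in both, UBB, a polyubiquitin gene, by 1.27 with LPS and UBA6, an activating enzyme, by 1.89, a call lost without untreated replicate 1 or 3 or LPS replicate 3 (adjusted p of up to 0.0622). UFD1, a cofactor of the VCP segregase that prepares substrates for the proteasome, fell by 1.54 with LPS (adjusted p = 0.00119), the fall of 1 in 6 genes of that list. That count is close to the share of all probes. With PBD150 plus LPS 2 of those 6 fell and 1, NPLOC4, rose, a call lost without any single untreated replicate (adjusted p of up to 0.115). The UBA6 call with PBD150 plus LPS was lost in the same way (adjusted p of up to 0.127).

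Regulators of proteasome genes were tested the same way. NFE2L1, the factor that raises proteasome genes when proteolysis is impaired, rose by 1.60 ± 0.21 with LPS and by 1.35 ± 0.21 with PBD150 plus LPS (adjusted p = 0.000969 and 0.00194). It was at 8.35, 8.35 and 8.40 untreated and at 10.30, 9.88 and 9.72 with LPS, with no overlap. It was the 1 of 6 regulators to rise with LPS, and FOXO4 rose as well with PBD150 plus LPS, by 1.10. Over all probes 10.6% rose with LPS and 12.6% with PBD150 plus LPS. The core of the antioxidant element that NFE2L1 and NFE2L2 bind, TGANNNNGC on either strand, was before the start of 18 of 34 members, or 52.9%, against 35.16% of all promoters of that length. Of the 12 measured interferon and NF-kB genes that act on inducible subunits 5 rose with LPS, the same number with PBD150 plus LPS, and none of the 12 fell. Falls made up 11.8% and 13.5% of all probes in these comparisons, and the shares of rises are those just given. Among the 5, the LPS call of IFNGR2 was lost without any single untreated replicate, LPS replicate 2 or 3 or PBD150 plus LPS replicate 2 (limma adjusted p of up to 0.124). IRF1, an activator of PSMB9 and other inducible genes, was at 9.86, 9.92 and 10.00 untreated and at 11.25, 11.20 and 11.25 with LPS. It rose by 1.31 ± 0.16 (adjusted p = 0.000804), and RELB and IRF9 rose by 3.23 and 3.15. TAP1 had no named probe here.

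Of 17 genes of class I antigen processing, the pathway that immunoproteasomes feed, 8 had a named probe, and with LPS 3 rose and 1 fell, beside 10.6% and 11.8% of all probes. PDIA3, an oxidoreductase of the peptide-loading complex, rose by 0.93 (limma adjusted p = 0.0054), TAPBPL, a peptide editor, by 1.26 (adjusted p = 0.0151) and HLA-C by 1.19 (adjusted p = 0.0162). CALR, the loading chaperone calreticulin, fell by 1.14 (adjusted p = 0.0135). With PBD150 plus LPS 4 rose and 1 fell, beside 12.6% and 13.5% of all probes. Of these calls HLA-C, HLA-G and CALR missed the threshold without untreated replicate 2, leaving 2 rises and 0 falls. The LPS calls were lost without untreated replicate 2 or 3 for CALR and HLA-C, and without untreated replicate 1 or LPS replicate 2 or 3 for TAPBPL, with adjusted p of up to 0.0630. Between PBD150 plus LPS and LPS no gene of any of these lists was called.

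The 3 remaining promoter motifs were searched on both strands of the same 250 bases. The NF-kB core GGNNTTNCC was in 8 of 34 members, or 23.5%, against 14.98% of all promoters, and TTCNNNGAA, the STAT palindrome, in 6 of 34, or 17.6%, against 6.57%. A match says no more than that the letters are in the window.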

How the data were processed

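The table the authors deposited holds a linear intensity for each probe on each of 27 one-colour arrays. Values below 0 show that background had been subtracted, and how, on which scanner and with what scaling is not given in the sources used here. A floor of 1 was set, log2 was taken and all arrays were brought to 1 distribution by quantile normalisation, because their log2 medians ranged from 5.37 to 6.65. The floor took 4.35% to 7.59% of values on an array. The 3 technical arrays of a biological replicate were averaged, giving 9 values per probe. The 3 groups were fitted together in limma 3.58.1 (R 4.3.3) with empirical Bayes variances, and two-sided p-values were adjusted by Benjamini-Hochberg over all 30968 probes, with calls at 0.05. The fit was tested on simulated data.

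Gene symbols were read from the array's probe table. Of 30968 probes 17397 had 1 symbol, 0 had several and 13571 had none. For genes outside the 40, symbols were updated through RefSeq, 2645 of them, with 82 left unmatched. The brightest probe by mean log2 stood for a gene. As noise limit of an array, 3 times the root mean square of the negative values on it was used. A value of at least 99% of the array's own maximum was taken as the top of the range. Promoters were from RefSeq (GRCh38.p14), with 34 of the 40 genes matched.

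The members, lists and tests were chosen with earlier results of these data known. Replicate values are given for PSMB10, PSME1, PSME2, PSMB5, PSMB6 and PSMB7 and, in each comparison, for the 6 other members with the smallest p among those that passed, or the 3 smallest where fewer than 3 passed. PSMD4, PSME4 and PSMD14 were added after their values were seen. The pair PSME1 over PSME3 was not among the planned pairs. Up to 4 genes of a pathway list are named, by smallest p, plus TAP1, IRF1 and NFE2L1. Alternatives were the scaling, the floor, the filter on dim probes, all 27 arrays with a random block, a replicate block, array weights, the groups in the fit, the probe that stands for a gene and leaving out each replicate. The number of arrays limits the precision.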

Additional observations from a re-analysis of the deposited data

How the results depend on the processing

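The median change of the members stayed below 0 in every comparison under all alternatives run. With values as deposited it was -0.31 for LPS against untreated, where all probes were at 0.41, and -0.39 for PBD150 plus LPS against LPS, where all probes were at -0.12. Members lower then numbered 7 with LPS and 16 with PBD150 plus LPS against untreated, beside 2205 and 3069 of all probes. The LPS median was -0.73 with a pseudocount of 16, -0.71 with array weights and -0.80 to -0.71 with a replicate left out. Members higher with LPS numbered 3 with values as deposited, 0 after median centring, 1 with only the 2 groups compared in the fit, 1 with the mean over a member's probes, 1 with the second probe and 0 to 1 with a replicate left out. With a replicate left out, 12 to 23 members were lower in the LPS comparison and 16 to 28 in that of PBD150 plus LPS against untreated. Over all probes these fits gave 2415 to 4160 and 2964 to 4805 falls. With all 27 arrays and a random block, 2 members were higher with PBD150 plus LPS. The causes were not tested.

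A replicate block left 16 members lower and 0 higher with LPS, and 21 lower and 1 higher with PBD150 plus LPS. Over all probes it left 2897 lower with LPS and 3433 with PBD150 plus LPS, against 3664 and 4174 in the main fit. Same-numbered replicates correlated at -0.22 to 0.04 in their deviations from group means, so the numbers are not taken as pairs.

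PSMA1 turned to 0.03 with LPS and 0.41 with PBD150 plus LPS as a mean over its probes, and to 0.82 and 1.56 on its second probe, and PSME1 turned to -0.02 with LPS on its second probe. Of the calls, 6 of 24 with LPS (PSMC3IP, PSMD12, PSMD3, PSMD9, PSME3 and PSMF1) and 15 of 27 with PBD150 plus LPS held under every alternative. Leaving out members near noise, chosen after seeing the data, left 35 members, 19 of them lower with LPS and 23 lower with PBD150 plus LPS. Changes of PSMA8, PSMC3, PSMD12, PSME2 and PSME4 are limited by signal near background, as is in part that of PSMD9. Those of PSMB1 and PSMB4 may be limited by the top of the range.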
